A study of Mus musculus with 5 samples.

Results

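Olig2 is a basic helix-loop-helix transcription factor of the ventral spinal cord. It is induced by hedgehog signalling in motor neuron progenitors, binds E-box sequences as a dimer and acts there largely as a repressor. Hoxc9, a homeodomain protein, is known for setting the identity of motor neurons at thoracic levels of the spinal cord. The regions described here are the places where Olig2 was listed with 2 different antibodies and Hoxc9 was listed with neither of its tags. Of 58192 regions formed from the binding events of 4 ChIP-seq lists, 5427 (9.33%) were of this kind. They made up 68.4% of the 7931 regions that held events of both Olig2 lists (Wilson 95% interval 67.4 to 69.4, counting error only).

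The cells were progenitors of motor neurons differentiated from Ainv15 mouse embryonic stem cells, in which doxycycline switches on a transgene carrying an epitope tag. All cultures received 1 µM retinoic acid and 0.5 µM of the hedgehog agonist SAG from day 2. The native Olig2 list came from day 4 cells of the line with inducible V5-tagged Olig2, without doxycycline, with an antibody to Olig2. For the V5 Olig2 list, the same line was induced with doxycycline at 3 µg/ml and taken at day 4, and the antibody was to the V5 tag. Both Hoxc9 lists were from induced cells at day 5, of a line with V5-tagged Hoxc9 and of another with Flag-tagged Hoxc9. The V5 antibody is directed at the tag, which the native protein does not carry. Its other binding was not examined, since a mock ChIP with it, from day 4 cells without doxycycline, was not analysed here. Antibody and induction differ together between the Olig2 lists and cannot be told apart. The Hoxc9 lists differ from the Olig2 lists in factor, day and line, which cannot be told apart either.

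An event is a single base of the mouse build mm9 at which the authors' caller placed binding, with the ChIP (IP) reads and control reads assigned to it. Events of all lists on the autosomes and X that lay 200 bp or less from the previous event were joined into a region. A region was kept if it held an event of each Olig2 list and of no Hoxc9 list. The regions were therefore chosen by the listed events themselves, and the values below describe them without a test. Each condition had 1 list, so no difference has a replicate check. On these chromosomes the native list held 15697 events and that of V5 Olig2 11067. The Hoxc9 lists held 11065 (V5) and 49278 (Flag). Depth is unknown, so IP reads rank events within a list and are not read as levels across lists.

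The regions took in 37.3% of native Olig2 events (5851 of 15697) and 52.1% of V5 Olig2 events (5767 of 11067). They ranged from the event with most IP reads of the native list, and the event ranked 2 in the V5 list, to events near the lower end of both. Native IP reads ran from 12 to 1152 with a median of 41 (quartiles 27 and 66), where the event with most reads stands for the region. V5 IP reads ran from 15 to 1165 with a median of 52 (quartiles 38 and 79). Of the 5427 regions, 48.7% were above the median IP reads of both whole lists, 26.5% above that of 1 list and 24.7% above that of neither. Regions in the native list alone had a median of 24 IP reads (n = 4893) and regions in the V5 Olig2 list alone a median of 32 (n = 2053).

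The strongest region by its worse rank in the 2 lists was chr17:71222033-71222045. It held 1152 native and 1165 V5 IP reads, with the events 12 bp apart, and it ranked first among these regions in both lists. Its nearest Hoxc9 event was 19216 bp away. The next was chr2:4074472-4074474, with 744 native and 1061 V5 IP reads at events 2 bp apart. A Hoxc9 event lay 1299 bp from it. On chromosome 19, the region chr19:38090080-38090178 held 648 native IP reads at a single event and 847.8 V5 IP reads at the stronger of a pair of events. At chr2:60626368 both lists named the same base, with 646 native and 1101 V5 IP reads. The region chr8:125566522-125566524 held 668 native and 687 V5 IP reads, with 6.9 and 20.7 control reads. In these leading regions the events of the lists were at most 14 bp apart, and the order of the regions differed between the lists.

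The following regions in this order lay on chromosomes 15, 16, 7, 19 and 9. The region chr15:101983339-101983347 held 524 native and 651 V5 IP reads and had a Hoxc9 event at 673 bp, the closest among the top 20. The region chr16:42190530-42190535 held 518 and 784, and chr7:35355628-35355635 held 577 and 549. At chr19:6241468-6241473 there were 652 native and 546 V5 IP reads, and at chr9:92825606-92825614 there were 668 and 543. The order of these 5 regions by native reads thus differed from that by V5 reads. Across the top 20, which lay on 12 chromosomes, the ratio of V5 to native reads ran from 0.793 to 1.70. Their events were at most 24 bp apart, with a median of 7.5 bp, and their nearest Hoxc9 event was at a median of 20.4 kb and at most 114 kb.

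The rest of the top 20 included chr14:25598766 and chrX:158447925, where both lists again named the same base. The former held 501 native and 510 V5 IP reads and the latter 390 and 501. At chr17:15384943-15385126 both lists resolved a pair of events, and the stronger of each pair held 475.3 native and 507.9 V5 IP reads. The region chr16:29720315-29720327 held 466 and 502 and chr14:57190861-57190862 held 579.4 and 463. The remaining regions, chr7:86676693-86676706, chr10:40022167-40022169, chr10:79511278-79511431, chr11:20555925-20555941 and chr9:48504978-48504989, held 332 to 473 native and 375 to 498 V5 IP reads. In their whole lists, the top 20 ranked from 1 to 92 among native and from 2 to 82 among V5 Olig2 events.

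**Figure D1:**
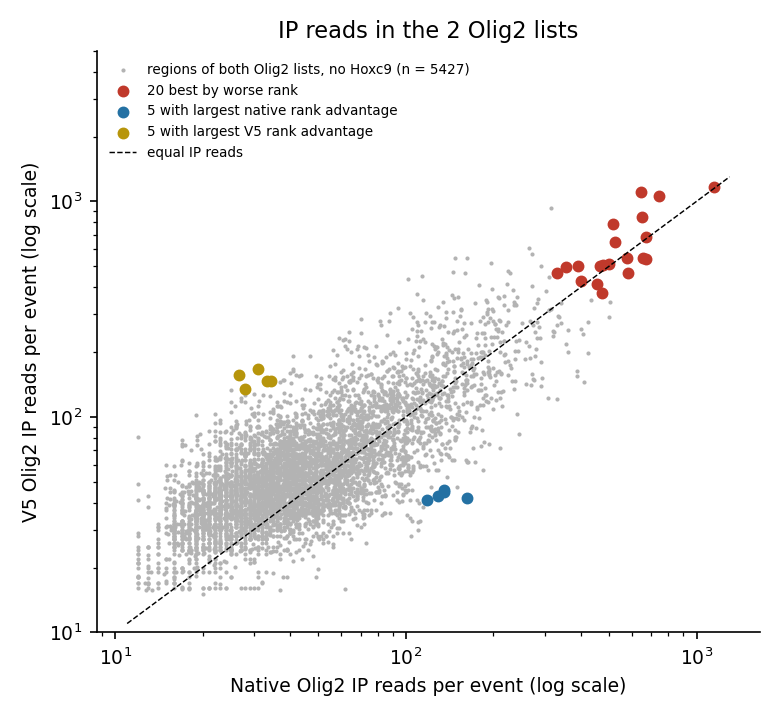
Native Olig2 IP reads (x axis) against V5 Olig2 IP reads (y axis) per event, both on log scales, for the 5427 regions of both Olig2 lists with no Hoxc9 event (grey), with the named regions in colour and a dashed line at equal reads. The 20 regions best by worse rank sit between 332 and 1152 native and between 375 and 1165 V5 IP reads, and the regions named for their rank differences lie far to either side of the dashed line.

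IP reads in the 2 lists were related across the regions (Spearman's rho 0.697, Pearson's r 0.758 on log2 reads, n = 5427). Regions of 1 list share its library, its control and its detection threshold, so this is a description and carries no p. Without the 10% of regions with most reads in either list, rho was 0.577 (n = 4685). Of the 100 regions with most native reads, 48 were among the 100 with most V5 reads. Of the 502 with most native reads (ties at rank 500 kept), 321 were among the 503 with most V5 reads, or 63.9% of the former and 63.8% of the latter.

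Some strong regions stood far apart in rank. Among regions in the top 500 of a list, the native rank was furthest ahead at chr18:66563545-66563577, with 162 native IP reads (rank 238) and 42 V5 IP reads (rank 3623) at events 32 bp apart. The next 4 under this limit were chr5:121010978-121010991 (118 and 41.3 IP reads), chr13:15716726-15716732 (129 and 43), chr10:79795030-79795220 (135.2 and 44.9) and chr4:139363548-139363557 (135 and 46). In the opposite direction and under the same limit, the V5 rank was furthest ahead at chrX:45369267-45369280, with 26.7 native (rank 4142) and 155.7 V5 IP reads (rank 366). It was followed by chr2:80691470-80691496 (28 and 135), chr16:93293365-93293370 (31 and 167), chr7:151814295-151814452 (33.2 and 147.3) and chr10:122324780-122324802 (34.3 and 147.1). The region on X also lay 224 bp from a Hoxc9 event, close to the distance at which it would have been left out. Regions outside the top 500 of both lists were not considered, and some of them differed by more places. These 10 regions were chosen for their difference, and with 1 list each its replicate error is unknown.

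The ratio of V5 to native IP reads had a median of 1.30 over the regions (95% interval of the median 1.28 to 1.32, counting over regions only) and quartiles of 0.960 and 1.73. Its level depends on the unknown relative depth of the libraries, so the spread between regions, not the distance from equal reads, is what it describes. The deposited fold of IP over control reads had a median of 40.3 in the native and 17.4 in the V5 list. Among the 5008 regions with control reads in both lists, the native fold was a median of 2.22 times the V5 fold. A fold of 10 or more was listed for 98.1% of the regions in the native list and 79.0% in the V5 list. These folds are on different control scales, as the next values show, and do not order the lists.

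The control reads themselves followed a ladder. At events with no other event of their list within 1000 bp, the IP reads divided by the deposited fold were whole multiples of 0.3435 reads in the native list for 93.1% of events, and of 1.036 reads in the V5 list for 84.6% (tolerance 0.1 of a step). The V5 step was 3.02 times the native step. Of the 4880 regions with 1 event in each list, 3843 (78.75%) had whole multiples in both. In these 3843, the number of steps was equal in 85.3% (3277 regions) and within 1 step in 96.5%. Control reads of 0 were entered as 0 steps, so regions at 0 in both lists count as equal, and they were not counted apart. The median was 3 steps in each list (quartiles 2 and 5). In steps, the control reads of the 2 lists were therefore nearly the same at these 3843 regions, which were kept for their whole multiples. The deposited folds differ by that scale as well as by the IP reads, and whether 1 control library served both lists was not tested.

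Control reads were low at most of the regions, with medians of 1 in the native and 3.1 in the V5 list. They were listed at 0 in 380 regions in the native and 381 in the V5 list. The most were at chr11:3044954-3045058, with 21.6 native and 65.9 V5 control reads. This region held 196.6 native and 515.2 V5 IP reads, for deposited folds of 9.1 and 7.8, and its nearest Hoxc9 event was 523262 bp away. It ranked 16 by V5 IP reads among the regions and 147 by native IP reads. The next were chr11:82220018-82220019 (9 native and 24 V5 control reads), chr3:129534394-129534409 (8.9 and 26.9) and chr17:15384943-15385126 (8.2 and 25.4), the last of which was also among the top 20. Native IP and native control reads were weakly related across the regions (rho 0.384, n = 5427).

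Within the regions, the native and V5 events mostly lay much closer than the rule required. The rule joined events at gaps of 200 bp or less, so a native and a V5 event within that distance were a condition of being kept. The nearest native and V5 events of a region were a median of 12 bp apart (quartiles 6 and 24), 44.2% lay within 10 bp, 94.3% within 50 bp and 99.0% within 100 bp. The same base was named in 119 regions. The V5 event had the higher coordinate in 52.4% and the lower in 45.4%, so neither direction dominated. The distance was shorter at stronger regions. It was a median of 16 bp in the 10% of regions with fewest reads, by the geometric mean of native and V5 IP reads, and 8 bp in the 10% with most. The distance below which 90% of regions fell went from 55 to 23.8 bp between these groups. In regions of both Olig2 lists that held a Hoxc9 event the median distance was 13 bp (n = 2504), close to that here.

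**Figure D2:**
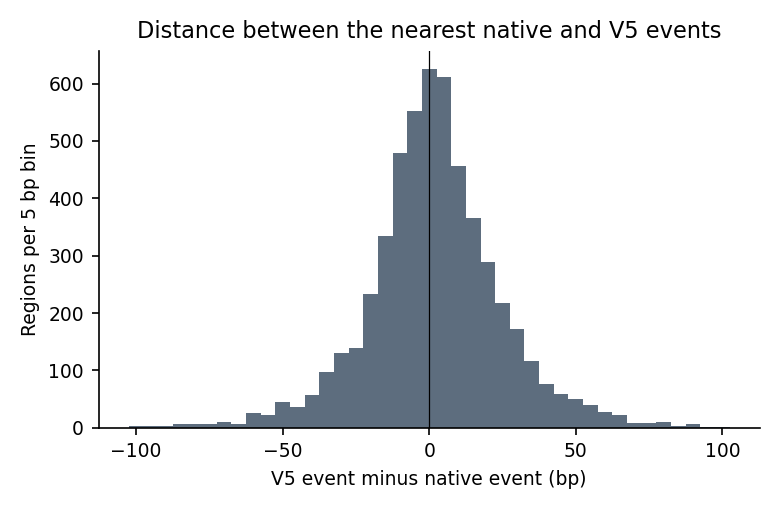
Distance in bp from the native to the nearest V5 event (x axis, positive where the V5 event has the higher coordinate) against the number of regions per 5 bp bin (y axis), for the 5427 regions. The distribution is centred near 0, with 94.3% of regions within 50 bp on either side.

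Most regions were single binding events. There was 1 event in each list in 4880 regions (89.9%), more than 1 native event in 402 (7.41%) and more than 1 V5 event in 323 (5.95%). Both lists resolved more than 1 event in 178 regions. In the 155 regions with a pair in each list, the paired events were a median of 160 bp apart in the native and 158 bp in the V5 list. The spacing in a region differed between the lists by a median of 32 bp, and by 20 bp or less in 57 regions (36.8%). The stronger event of the pair was on the same side in both lists in 101 (65.2%). The widest region, chr7:139622715-139623396, spanned 681 bp with 3 native and 4 V5 events, of which the strongest held 58.7 and 59.8 IP reads. It was followed by chr19:12564089-12564605 (516 bp, 4 native and 3 V5 events), chr1:20292481-20292962 (481 bp), chr1:73317331-73317774 (443 bp) and chr2:45632088-45632517 (429 bp), the last 3 with 3 events in each list. The widest regions were thus not the strongest, with native ranks from 551 to 2575.

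Regions that also held a Hoxc9 event had more Olig2 IP reads. The median native IP reads were 41 in the regions without a Hoxc9 event and 56.9 in the 2504 regions with one, and the median V5 Olig2 IP reads were 52 and 62. By list, the native median was 54 with Flag Hoxc9 only (n = 1456), 45 with V5 Hoxc9 only (n = 77) and 63 in regions of all 4 lists (n = 971). The ranges overlapped widely, since the quartiles of the regions without Hoxc9 were 27 and 66 and those of the regions with Hoxc9 were 34.3 and 97. Median native control reads were 1 without and 1.1 with a Hoxc9 event, and median V5 control reads 3.1 and 3.5, and their part in the difference was not tested.

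The share of Olig2 regions without Hoxc9 was lower where Olig2 reads were higher. When the 7931 regions were ranked by native IP reads, 79.2% of the 10% with fewest (Wilson 95% interval 76.3 to 81.9) and 51.1% of the 10% with most (47.6 to 54.5) held no Hoxc9 event. Ranked by V5 IP reads the shares were 72.9% and 53.6%. By V5 reads, the 6 weaker of the 10 groups all lay between 72.1% and 73.3%. A Flag Hoxc9 event was present in 19.4% of the 10% with fewest native reads and 48.3% of the 10% with most, and a V5 Hoxc9 event in 8.56% and 23.8%. The gap by native reads was narrower with events of a fold of 10 or more, at 82.3% and 66.1%. With only events whose control reads did not exceed the list's median it was 82.7% and 75.8%. Over the whole lists, which also count events listed by 1 Olig2 antibody alone, the shares did not run this way. Regions of both Olig2 lists without Hoxc9 took in 40 of the 100 strongest native events, 50.4% of the 1000 strongest and 37.3% of all. For V5 Olig2 events they took in 48 of the 100 strongest, 53.1% of the 1000 strongest and 52.1% of all.

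**Figure D3:**
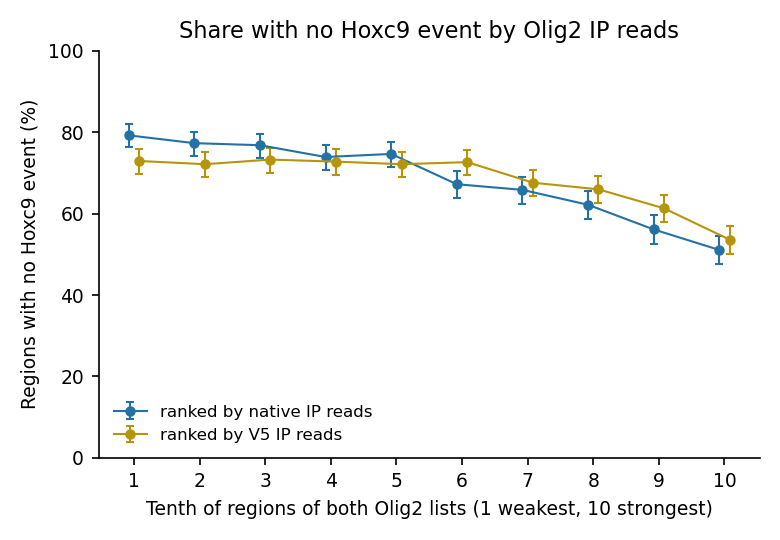
Percent of regions of both Olig2 lists with no Hoxc9 event (y axis) in 10 equal groups by native or V5 Olig2 IP reads (x axis, weakest to strongest). Bars are Wilson 95% intervals. By native reads the share goes from 79.2% to 51.1%, and by V5 reads from 72.9% to 53.6%.

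The balance of the Olig2 lists differed with Hoxc9 as well. The median ratio of V5 to native IP reads was 1.30 in the regions without a Hoxc9 event and 1.13 in those with one (n = 2504). Both come from the same pair of libraries, so their relative depth scales both alike. At matched strength, by the geometric mean of native and V5 IP reads, the median ratio was the higher without Hoxc9 in 10 of 10 groups, by 0.0492 to 0.235. It was also the higher in 10 of 10 groups when regions were ranked by V5 reads, by 0.136 to 0.330. Ranked by native reads, it was the higher in 8 of 10, and the difference ran from -0.0691 to 0.141. How the ratio ran with strength depended on the ranking. Without Hoxc9, it was 1.44 in the weakest and 1.15 in the strongest group by the geometric mean, 1.78 and 0.920 by native reads, and 1.12 and 1.48 by V5 reads. The reads that rank the regions also enter the ratio, so no trend with strength is read from it. By type of Hoxc9 event, the median ratio was 1.15 with Flag only, 1.39 with V5 Hoxc9 only (n = 77) and 1.08 with both, so the regions with V5 Hoxc9 only did not share the lower ratio. The V5 antibody was used for 1 Olig2 and 1 Hoxc9 list, and its part in these ratios was not tested.

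**Figure D4:**
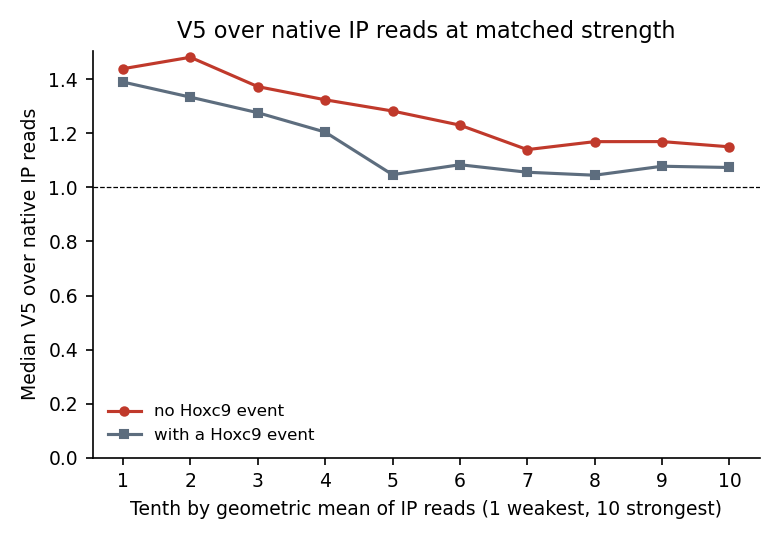
Median ratio of V5 to native Olig2 IP reads (y axis) in 10 equal groups of the regions of both Olig2 lists by the geometric mean of the reads (x axis, weakest to strongest), for regions with no Hoxc9 event (red) and with one (grey). The dashed line marks equal reads. The ratio without Hoxc9 is the higher in all 10 groups. The slope from weakest to strongest turns when regions are ranked by V5 reads alone.

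Several Olig2 events were listed in a smaller share of the regions without Hoxc9 than of those with it. To keep Hoxc9 events from widening a region, the Olig2 events were also joined alone. More than 1 native event was then found in 7.41% of the 5427 regions with no Hoxc9 event within 200 bp (Wilson 95% interval 6.74 to 8.13) and in 19.0% of the 2532 with one (17.5 to 20.6). The order was the same in the stronger regions, above the median geometric mean of IP reads, with 11.5% and 24.6%, and in the weaker regions, with 4.05% and 10.6%. For V5 events the shares were 5.95% and 12.7% over all. Regions with several events cover more bases, and the part of this in the difference was not tested.

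The distance to the nearest Hoxc9 event outside a region was also measured. It was not computed for random positions, so the values below are not read as a trait of the regions. The nearest Hoxc9 event of either list was a median of 16123 bp away, within 1 kb for 9.71% of the regions (527), within 10 kb for 38.8% and within 100 kb for 91.5%. Regions in the native list alone had a Hoxc9 event within 10 kb in 38.2% and regions in the V5 Olig2 list alone in 37.0%, so the 3 kinds of region differed little in this. All 3 kinds hold no Hoxc9 event by rule. The Flag list gave most of these neighbours, with an event within 10 kb of 36.7% of the regions, against 15.6% for the shorter V5 Hoxc9 list.

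Few regions lay near the 200 bp limit. In the 2504 regions with both factors, 77.8% had an Olig2 and a Hoxc9 event within 50 bp of each other and 7.43% had their closest pair at 101 to 200 bp. Among the regions without Hoxc9, 122 (2.25%) had a Hoxc9 event at 201 to 300 bp and 98 at 301 to 400 bp. The closest were chr1:158544304-158544307 and chr4:139586617-139586717, each with a Hoxc9 event at 202 bp, and chr7:38122136-38122154 at 203 bp. They held 41 and 35, 36 and 38.3, and 16 and 35 native and V5 IP reads. Just inside the limit, chr5:148781552-148781901 and chr16:63806448-63806742 were joined to a Hoxc9 event at 200 bp and chr8:86271477-86271807 at 198 bp. These held 58 and 44.7, 200 and 224, and 34.7 and 25.7 native and V5 Olig2 IP reads.

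The regions were spread over every chromosome examined, and some formed local groups. Numbers ran from 91 on X to 453 on chromosome 2. Of all regions on the chromosome these were 9.43% (of 965) and 9.60% (of 4720), near the 9.33% over all chromosomes. Among all regions of a chromosome, this share was lowest on chromosome 14 (6.99%) and highest on chromosome 11 (12.9%). The share of Olig2 regions without Hoxc9 was highest on chromosome 11 (76.9%, 416 of 541, Wilson 95% interval 73.2 to 80.2) and lowest on chromosome 14 (60.6%, 191 of 315, 55.1 to 65.9). Chromosomes 17 (75.7%), X (75.2%), 19 (73.6%) and 7 (73.6%) were near the upper end and chromosome 6 (62.4%) near the lower. The intervals for chromosomes 11 and 14 did not overlap, but these chromosomes were picked as the highest and the lowest. The intervals also treat neighbouring regions as independent, so no difference between chromosomes is read from them. Neighbours in this order did not differ beyond their intervals. Median native IP reads per chromosome lay between 34.2 on X and 44 on chromosomes 2 and 15.

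**Figure D5:**
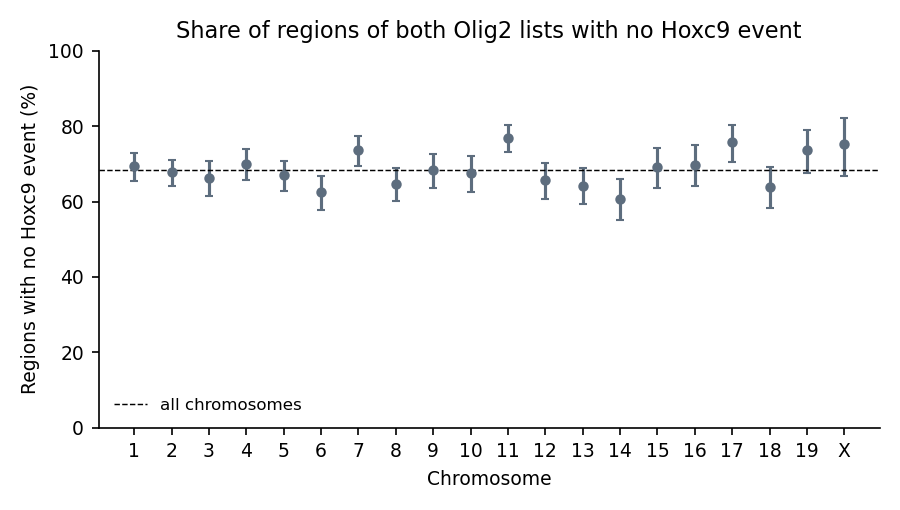
Percent of regions of both Olig2 lists with no Hoxc9 event (y axis) for each chromosome (x axis), with Wilson 95% intervals that cover counting error only and a dashed line at the share over all chromosomes. Chromosome 11 is highest at 76.9% and chromosome 14 lowest at 60.6%.

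The next region of the same kind lay at a median of 75147 bp, and within 10 kb for 17.8%. A next region of both Olig2 lists, with or without Hoxc9, lay within 10 kb for 23.4% of the regions without Hoxc9. It did so for 25.2% of those with Hoxc9, so this spacing was not particular to the regions without it. When regions without Hoxc9 at most 50 kb apart were grouped, 3248 stood alone and 2 groups held 8 regions each. One spanned chr11:76103985-76212181 and its native IP reads ran from 20 to 90.3, with V5 IP reads from 31.2 to 119.1. The strongest native reads in it were at chr11:76103985-76104110 (90.3 native and 104.9 V5 IP reads), and the strongest V5 reads at chr11:76164666-76164679 (31.3 and 119.1). The other spanned chrX:11602803-11735699, with 14 to 123 native and 17 to 138 V5 IP reads. There were 5 and 4 regions with a Hoxc9 event within these spans. The groups were picked by their number of regions after the values were seen. None of their regions was among the top 20.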

How the data were processed

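Alignment used Bowtie 0.12.5 and the build mm9, per the submitters' processing notes. The event caller's version, its settings and the library behind the control reads were not given in the sources used here. The V5 Hoxc9 list covers 2 libraries and every other list 1, per the labels and the design text. Per the file headers and values, IP and control reads are estimated counts with decimals. The fold deposited by the authors is IP over control reads, and is mostly 9999.9 where the latter are 0. The tables also give the authors' −log10 of p and q. The interval lists repeat positions and −log10 p and were not used, and the mock ChIP was not analysed here.

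Events on the 19 autosomes and X were joined at gaps of 200 bp or less, and a region takes the event with most IP reads of each list. Percentages carry Wilson 95% intervals and medians 95% intervals from order statistics. Both treat regions as independent, which neighbours are not. Control steps were fitted at events with a fold of 10 or more. Regions were named by rule: the 20 with the best worse rank, the 5 with the largest rank advantage each way within the top 500 of a list, the 5 widest, 3 on either side of the distance limit, and 3 with most control reads in each list. The regions, lists and rules were chosen with earlier results of these data known. Alternatives were gaps of 100, 500 and 1000 bp, limits on reads, fold and control reads, an equal-length Flag list, a 1000 bp exclusion, sums over events, ranking by p and, added after seeing the data, Olig2 events joined alone. The joining was tested on simulated events. Motif shares and nearby genes were planned but not run, since the reference tables are on another build, so regions are named by mm9 position as the event tables give it. Python 3.11.15 was used with matplotlib 3.10.9, SciPy 1.17.1, pandas 2.3.3 and numpy 2.4.6.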

Additional observations from a re-analysis of the deposited data

Results flagged for a closer look

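The comparisons left out events on unplaced contigs, and 2 pairs of Olig2 events there met the same rule in data the report does not use. On the contig 1_random, native and V5 events both lay at 34474, with 100 native and 83 V5 IP reads and 0.7 and 2.1 control reads. Further along, a native event at 246383 with 32 IP reads lay 4 bp from a V5 event with 37. No Hoxc9 event was listed near either pair.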

How the results depend on the processing

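No paired analysis was possible because each condition had 1 list, and no replicate could be left out. None of the 96 values under 11 alternatives was labelled as reversed. Numbers, shares and medians of reads or distance have no direction to reverse, so for them this is no check. Against the reported values, many were labelled as moved. For the number of regions, their share, rho and the native ratio to regions with Hoxc9, 18 moved and 20 stayed the same. For the other results, 15 moved and 43 stayed the same. The number of regions was 2658 with events of at least 40 IP reads and 3204 with control reads at or below the list median, both by construction with fewer events. The limits on fold, reads and control reads applied to all 4 lists. They thus also removed Hoxc9 events, as did the equal-length Flag list, which bears on the shares that follow. The share without Hoxc9 was 71.8%, 65.2% and 62.5% with gaps of 100, 500 and 1000 bp, 75.4% with a fold of 10 or more, 65.2% with at least 40 IP reads, 83.4% with an equal-length Flag list, 82.8% with low control reads and 61.8% without a Hoxc9 event within 1000 bp. The rho between the lists was 0.745 with a fold of 10 or more, 0.610 with at least 40 IP reads, 0.649 with low control reads and 0.712 with sums over events. The median native IP reads over those in regions with Hoxc9, 0.721 as reported, was 0.777, 0.803, 0.837 and 0.667 under the same 4. Joining Olig2 events alone, chosen after seeing the data, leaves the regions without Hoxc9 unchanged by construction. Their number of 5427, their medians and their rho are thus no check, though counted above among the values that stayed the same. Only the share without Hoxc9 (68.2%) and the native ratio to regions with Hoxc9 (0.723) could move. The higher V5 over native ratio without Hoxc9 was seen in 10 of 10 strength groups in 8 of the 9 alternatives run for it and in 9 groups with at least 40 IP reads. Of the 20 top regions, 19 were named again by −log10 p. The alternatives for motif shares were not run. Depth is unknown, so weak regions absent from a Hoxc9 list cannot be told from unbound ones.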
